A study of Mus musculus with 9 samples.

Results

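The 44 collagen chains described here are all genes of the deposited table, out of 32761, whose symbol has the form Col, a type number, the letter a and a chain number. Of these, 24 had a mean of at least 0.5 FPKM over the 9 libraries and were tested. The other 20 lay below that mean and are given by counts and ranges, some of them with their values. FPKM, the unit of the table, is a level of fragments scaled for transcript length and for the mapped total of the library.

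Collagens are triple helices of chains that share a repeat with glycine at regular places. Fibrillar collagens form the cables of connective tissue, collagen IV forms the sheet of basement membranes, collagen VI forms beaded filaments around cells, and further types sit on the surface of fibrils, form short-chain networks, carry an endostatin fragment at their end or span the cell membrane. In liver, stellate cells and fibroblasts are the main source of the fibrillar chains, and sinusoidal and vessel cells add to the basement membrane chains.

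RNA was measured in 9 tumours grown in mouse liver from Hepa1-6-luc, a luciferase-marked mouse hepatoma line, and collected on day 14. The study had 6 treatment groups, of which 3 were sequenced with 3 tumours each. These were the Control, the Lenvatinib+anti-PD1 group, which had the free drug, and the Co+Len@OVA+anti-PD1 group, which had the nanocluster. Lenvatinib+anti-PD1 mice received free lenvatinib, an inhibitor of VEGF and FGF receptor kinases, by tail vein every 3 days at a concentration equivalent to that in the nanocluster, and an antibody against PD1, an inhibitory receptor of T cells, at 50 µg per injection every 4 days. Co+Len@OVA+anti-PD1 mice received the same antibody and a drug-loaded nanocluster at 2 mg/mL, also by tail vein every 3 days. The labels name no agent for Control and do not say what Co stands for. All groups carry the same implanted tumour line, and no sequenced group had the drug, the nanocluster or the antibody alone, so their shares in a difference cannot be told apart. In bulk tumour RNA, fewer cells of a type and less RNA per cell cannot be told apart either.

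The summed FPKM of 5 hepatoma markers was 373.1 to 442.9 in Control, 380.8 to 436.5 in Lenvatinib+anti-PD1 and 237.8 to 247.1 in Co+Len@OVA+anti-PD1. This sum was lower in all 3 nanocluster libraries. Afp, the fetal liver protein of hepatomas, made up most of it and fell with the nanocluster against Control by -0.76 on the log2 scale (limma adjusted p = 0.000589). The other tested hepatoma markers did not pass, with Igf2 at 1.48, Gpc3 at 0.38 and H19 at -0.33. Dlk1, below the mean for testing, had means of 0.00779 FPKM in Control and 0.5825 with the nanocluster. Tumour cell content was not tested. Several libraries stood apart. Libraries 2 and 3 of Lenvatinib+anti-PD1 held 4498 and 1790 FPKM of 11 skeletal and heart muscle markers, against 31.9 in library 1 and 1.57 to 46.6 in the other groups. Libraries 1 and 3 of Co+Len@OVA+anti-PD1 held 82.5 and 43.0 FPKM of 7 nerve and glia markers, against 2.77 in library 2 and 1.61 to 8.03 in the other groups. Adipocyte markers, summed over 7 genes, were at 5.79, 8.50 and 15.8 FPKM in Control, 46.9, 588 and 265 in Lenvatinib+anti-PD1 and 235, 42.6 and 138 in Co+Len@OVA+anti-PD1. Each treated library was above each Control library in this sum. In library 1 of Lenvatinib+anti-PD1, however, Car3 alone gave 39.7 of the 46.9 FPKM. Fabp4, at 2.41 FPKM there, was below every Control library, and Cfd, at 4.07, was within the Control range. Of the 6 tested genes, Cfd and Car3 rose in both treatments, where 20.9% of all genes rose with the nanocluster and 13.8% with free lenvatinib. Control library 2 held 2.34 FPKM of 8 squamous epithelium markers, where the other libraries held 165 to 438. Hepatocyte markers summed to 2348 to 5393 FPKM in Control, 3558 to 3773 in Lenvatinib+anti-PD1 and 751 to 1054 in Co+Len@OVA+anti-PD1.

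The third library of each group lay close to a mean of the other 2. Its level was between those of libraries 1 and 2 for 21 of the 24 tested chains in Control, 22 in Lenvatinib+anti-PD1 and 20 in Co+Len@OVA+anti-PD1. Nothing in the labels says how the tumours were sampled, so the p-values measure the spread between these libraries, which may be in part technical. The calls from libraries 1 and 2 alone are therefore given beside each comparison.

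Promoter sequences, taken from RefSeq (build GRCm38.p6), reach from 250 bases before to 50 bases after a start site, and 35 of the 44 chains had one or more, 38 windows in all. Col4a1 and Col4a2, the main chains of collagen IV, are neighbours on chromosome 8 and are transcribed away from each other. Their windows are shown because the chains kept a nearly constant ratio over the 9 libraries. The Col4a1 window lies at chr8:11312777-11313076 on the minus strand and the Col4a2 window at chr8:11312555-11312854 on the plus strand. Capitals mark the 78 bases, chr8:11312777-11312854, that the windows share, each strand being the reverse complement of the other. The Col4a1 window had a GC content of 74.0% and the Col4a2 window of 73.7%.
Col4a1: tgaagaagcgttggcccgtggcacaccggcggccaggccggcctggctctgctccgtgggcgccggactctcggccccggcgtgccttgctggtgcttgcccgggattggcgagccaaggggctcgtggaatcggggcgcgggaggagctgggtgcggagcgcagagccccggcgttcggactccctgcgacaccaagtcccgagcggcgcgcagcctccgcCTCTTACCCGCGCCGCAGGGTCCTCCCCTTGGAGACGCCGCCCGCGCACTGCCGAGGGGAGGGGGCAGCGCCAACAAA
Col4a2: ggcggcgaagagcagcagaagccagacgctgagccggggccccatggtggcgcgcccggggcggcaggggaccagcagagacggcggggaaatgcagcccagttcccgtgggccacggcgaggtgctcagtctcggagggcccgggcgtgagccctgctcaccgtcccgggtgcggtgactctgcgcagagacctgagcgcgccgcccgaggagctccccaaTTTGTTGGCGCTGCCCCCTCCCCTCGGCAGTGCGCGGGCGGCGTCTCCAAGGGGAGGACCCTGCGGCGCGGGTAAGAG

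The windows of Col8a1 and Col9a1 are shown because their calls between Co+Len@OVA+anti-PD1 and each other group, in opposite directions, held on leaving out any 1 library. Col8a1 has a window at chr16:57754688-57754987 on the minus strand, with a GC content of 60.3%. Col9a1 has an upstream window at chr1:24177360-24177659 and a downstream window at chr1:24194953-24195252, both on the plus strand, with GC contents of 47.3% and 55.7%. Capitals mark matches to the motifs named after the sequences.
Col8a1: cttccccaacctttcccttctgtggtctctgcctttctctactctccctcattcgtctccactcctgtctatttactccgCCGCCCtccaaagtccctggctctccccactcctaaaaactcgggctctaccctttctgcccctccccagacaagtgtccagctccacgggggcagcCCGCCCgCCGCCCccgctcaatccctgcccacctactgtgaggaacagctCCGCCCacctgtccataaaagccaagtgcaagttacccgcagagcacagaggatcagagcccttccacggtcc
Col9a1 upstream start: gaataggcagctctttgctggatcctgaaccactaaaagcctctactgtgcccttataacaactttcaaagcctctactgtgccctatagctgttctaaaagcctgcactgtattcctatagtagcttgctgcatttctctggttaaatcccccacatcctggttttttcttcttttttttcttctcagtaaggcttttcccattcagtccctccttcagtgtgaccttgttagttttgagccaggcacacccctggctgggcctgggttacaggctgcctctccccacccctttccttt
Col9a1 downstream start: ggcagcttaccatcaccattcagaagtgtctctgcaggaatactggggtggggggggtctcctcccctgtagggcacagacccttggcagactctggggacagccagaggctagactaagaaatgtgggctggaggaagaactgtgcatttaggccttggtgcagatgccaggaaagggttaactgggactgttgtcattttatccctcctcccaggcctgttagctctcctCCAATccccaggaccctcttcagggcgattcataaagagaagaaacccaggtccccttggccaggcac

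The motifs were searched on both strands. The GC box GGGCGG was in 23 of the 38 collagen windows (60.5%) and in 35.7% of all 32851 windows of this length. Col8a1 held 4 GC boxes, Col4a2 held 3, Col4a1 held 1 and the Col9a1 windows held none. The CCAAT box was in 13 collagen windows (34.2%) against 37.4% of all windows, once each in those of Col4a1, Col4a2 and the downstream start of Col9a1. TATAAA was in 5 collagen windows (13.2%) against 13.6% of all, and the AP-1 letters TGANTCA were in 1 (2.63%) against 7.81%. A match says only that these letters are in the window.

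The 5 chains with the highest mean, Col1a1, Col1a2, Col3a1, Col4a1 and Col4a2, held 63.6% to 75% of the summed collagen FPKM in a library. That sum was 279.2, 585.2 and 482.0 FPKM in Control libraries 1, 2 and 3, 156.3, 529.9 and 304.8 in Lenvatinib+anti-PD1 and 748.9, 386.6 and 576.2 in Co+Len@OVA+anti-PD1. These ranges overlapped, and they made up 0.0437% to 0.225% of the FPKM total of a library. The libraries of a group differed in most chains at once. Library 2 was above library 1 for 20 of the 24 chains in Control and 22 in Lenvatinib+anti-PD1, and library 1 was above library 2 for 21 in Co+Len@OVA+anti-PD1. The highest library of a group was over 4 times the lowest for 11 chains in Lenvatinib+anti-PD1, for Col17a1 alone in Control and for none in Co+Len@OVA+anti-PD1. This spread sets what the comparisons can show.

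**Figure D1:**
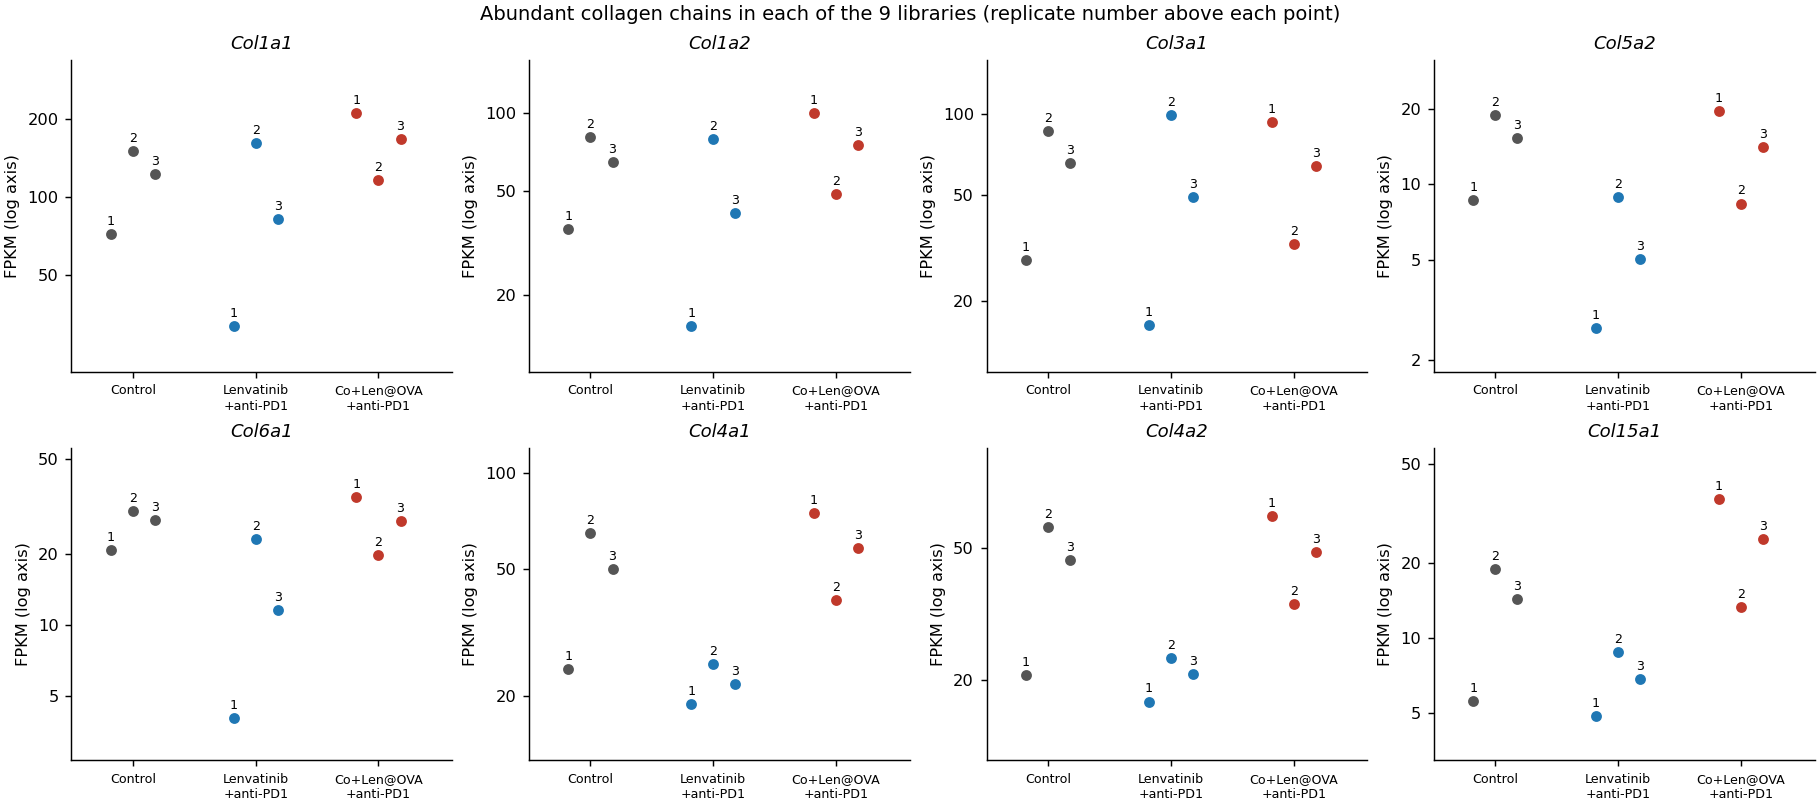
FPKM (log axis) of 8 abundant collagen chains in each of the 9 libraries by group, each point 1 library with its replicate number. Col1a1 runs from 31.5 to 162 FPKM within Lenvatinib+anti-PD1, a span that holds all 3 Control libraries, while Col4a1 stays between 18.99 and 25.3 there.

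In Co+Len@OVA+anti-PD1 tumours, 3 chains rose and 2 fell against Control, and the fibrillar chains that dominate the sum did not pass. Col8a1, Col5a3 and Col18a1 rose, and Col9a1 and Col22a1 fell. These 5 of 24 (20.8%) compare with 33.6% of all 15353 genes tested with limma at an adjusted p under 0.05, so the share among collagens was below that of all genes, 20.9% of which were higher and 12.7% lower. At an unadjusted p under 0.05 there were 7 chains, against 46.6% of all genes. The median log2 fold change of the 24 chains was 0.31, against 0.13 over all genes, with 18 above 0 and 6 below. Libraries of the groups did not overlap for 7 chains (29.2%), against 49.7% of all genes, with 5 chains higher (32.4% of all genes) and 2 lower (17.3%). In libraries 1 and 2 alone no chain passed, with 2 higher and 2 lower at an unadjusted p under 0.05. In that fit 0.111% of all genes were higher and 0.41% lower, so few genes of any kind passed. The count of 3 risen chains became 1 without Co+Len@OVA+anti-PD1 library 1 or library 3.

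In Lenvatinib+anti-PD1 tumours, Col9a1, Col27a1 and Col22a1 rose against Control and no chain fell. These 3 of 24 (12.5%) compare with 23.7% of all genes, 13.8% higher and 9.87% lower. The median of the 24 chains was -0.34, against 0.05 over all genes, with 9 above 0 and 15 below, and the groups did not overlap for 3 chains (12.5%) against 43.5% of all genes, all 3 higher (26.1% of all genes) and 0 lower (17.4%). Lower values in 6 chains, Col4a1, Col4a2, Col4a5, Col5a1, Col5a2 and Col6a1, reached an unadjusted p under 0.05, which 38.2% of all genes did in either direction, but not the adjusted threshold. Without Control library 1, 4 of 24 chains were lower (Col4a1, Col4a2, Col4a5 and Col5a2), a share like that of all genes in that fit (17.4% lower). Without Lenvatinib+anti-PD1 library 2, the library with the most muscle RNA, 3 were lower (Col5a1, Col5a2 and Col6a1), against 6.75% of all genes. The 3 risen chains became 1 without Control library 3 or without Lenvatinib+anti-PD1 library 3. In libraries 1 and 2 alone none passed, with 1 higher and 0 lower at an unadjusted p under 0.05, where 0.215% of all genes were higher and 0.13% lower. Without both muscle-rich libraries, an alternative chosen after seeing the data, 0 chains were higher and 1, Col6a1, was lower, against 1.16% and 0.964% of all genes.

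Between the treatments, Col8a1, Col4a1, Col4a2 and Col15a1 were higher in Co+Len@OVA+anti-PD1, and Col9a1, Col22a1 and Col27a1 were lower. These 7 of 24 (29.2%) compare with 29.4% of all genes, 17.3% higher and 12.0% lower, a share like the background. At an unadjusted p under 0.05 there were 12 chains, against 44.6% of all genes. The median was 0.87, against 0.07 over all genes, with 19 chains above 0 and 5 below, and the groups did not overlap for 8 chains (33.3%) against 54.8% of all genes, with 5 chains higher (34.3% of all genes) and 3 lower (20.4%). In libraries 1 and 2 alone, Col8a1 was higher (adjusted p = 0.0316) and Col9a1 lower (adjusted p = 0.0155), and no other chain passed, against 0.443% and 1.93% of all genes. The 4 higher chains became 1 without library 1 or 3 of either treatment group and 2 without Control library 3. They became 6 without Lenvatinib+anti-PD1 library 2, namely Col12a1, Col5a1, Col5a2, Col6a1, Col6a3 and Col8a1, where 11.5% of all genes were higher, and 7 without both muscle-rich libraries, where 3.41% were. They became 6 also without Control library 1, with Col18a1 and Col5a2 added, where 27.5% of all genes were higher. The comparisons share libraries, so a chain called in several of them is not independent evidence.

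**Figure D2:**
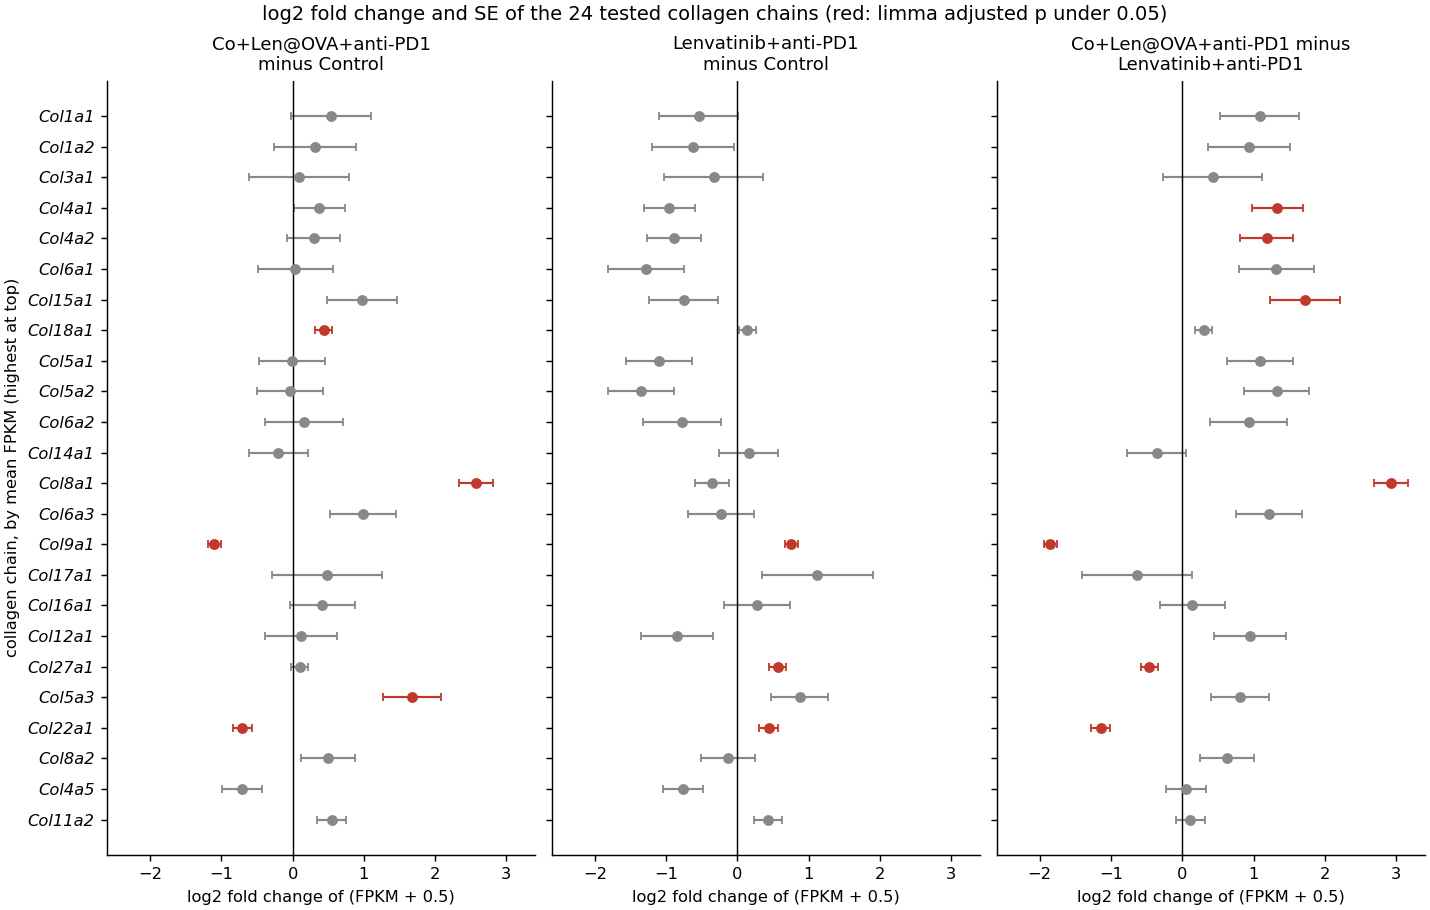
Log2 fold change of FPKM + 0.5 with its standard error for the 24 tested chains, ordered by mean FPKM, in the 3 comparisons, with chains at a limma adjusted p under 0.05 in red. The wide bars of the abundant fibrillar chains cross or approach 0 against Control, and the narrow bars of Col9a1 and Col22a1 lie on opposite sides of 0 in the outer panels and the middle one.

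Among the fibrillar chains, 8 of 11 were tested. Col1a1 and Col1a2 form collagen I, the bulk of scar matrix. Col1a1 was at 71.7, 149.7 and 122.7 FPKM in Control, 31.5, 162 and 82.3 in Lenvatinib+anti-PD1 and 211, 116 and 167 in Co+Len@OVA+anti-PD1. The ranges overlapped in all pairs of groups. The group means were 115 ± 39.6, 91.9 ± 65.6 and 165 ± 47.6 FPKM (SD, n = 3). Against Control, the log2 fold change was 0.54 in Co+Len@OVA+anti-PD1 (95% interval -0.74 to 1.83, adjusted p = 0.473) and -0.54 in Lenvatinib+anti-PD1 (-1.83 to 0.74, adjusted p = 0.515). Both intervals include 0. Col1a2 was at 60.4 ± 22.6, 45.4 ± 32.4 and 74.5 ± 25.3 FPKM in the same order. Col3a1, the collagen III chain that joins collagen I in soft tissue, was at 28.6, 86.2 and 65.8 FPKM in Control, 16.3, 99.4 and 49.1 in Lenvatinib+anti-PD1 and 93.6, 32.8 and 64.0 in Co+Len@OVA+anti-PD1. Its libraries spread more within each group than between them, and its log2 fold change against Control was 0.09 with the nanocluster (-1.52 to 1.70, adjusted p = 0.931).

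Collagen V chains seed and set the width of collagen I fibrils, and they split by chain. Col5a1 was at 14.9 ± 2.42, 7.73 ± 4.88 and 15.3 ± 5.35 FPKM in the Control, free lenvatinib and nanocluster groups. Col5a2 was at 8.66, 18.9 and 15.2 FPKM in Control, 2.68, 8.92 and 5.04 in Lenvatinib+anti-PD1 and 19.6, 8.39 and 14.1 in Co+Len@OVA+anti-PD1. Library 2 of Lenvatinib+anti-PD1 just reached the lowest Control library, and the log2 fold change of -1.36 ± 0.46 SE did not pass (adjusted p = 0.0675). It passed without Control library 1 or without Lenvatinib+anti-PD1 library 2. Col5a3, a rarer collagen V chain, was at 0.517, 0.728 and 0.729 FPKM in Control, 0.723, 3.08 and 1.65 in Lenvatinib+anti-PD1 and 4.80, 1.93 and 3.4 in Co+Len@OVA+anti-PD1. All nanocluster libraries were above all Control libraries, and library 1 of Lenvatinib+anti-PD1 lay within Control. Col5a3 rose 5.14-fold in mean with the nanocluster (log2 fold change 1.68 ± 0.40 SE, adjusted p = 0.0164), a call lost without library 1 (adjusted p = 0.0514) or library 3 (0.0565) of that group. Against Control its log2 fold change in Lenvatinib+anti-PD1 was 0.87 (adjusted p = 0.154), and between the treatments it was 0.81 (adjusted p = 0.16). Within each treatment group, Col5a3 had the same order of libraries as the summed adipocyte markers, an order that the summed fibroblast markers shared. In Control its libraries 2 and 3 were nearly equal. The part of these cell types in Col5a3 was not tested.

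Col27a1, a fibrillar chain best known from cartilage, was at 1.38, 1.92 and 1.49 FPKM in Control, 2.65, 2.34 and 2.78 in Lenvatinib+anti-PD1 and 1.66, 1.71 and 1.84 in Co+Len@OVA+anti-PD1. All Lenvatinib+anti-PD1 libraries were above all others. It rose against Control by 0.57 ± 0.12 SE on the log2 scale (adjusted p = 0.0128), and the call was lost without Control library 3 (adjusted p = 0.0519) or Lenvatinib+anti-PD1 library 3 (0.0581). It was lower with the nanocluster than with free lenvatinib by -0.46 (adjusted p = 0.0236), a call lost on leaving out library 1 or 3 of Lenvatinib+anti-PD1 or any library of Co+Len@OVA+anti-PD1 (adjusted p up to 0.0898). Col11a2 was low, at 0.393 ± 0.146, 0.704 ± 0.188 and 0.804 ± 0.203 FPKM, and passed in no comparison (adjusted p = 0.0649 for the nanocluster against Control). Of 9 cartilage and bone markers, Matn1 and Matn3 were under 0.1 FPKM in every library and Acan, the main cartilage proteoglycan, was at or under 0.113. Only Sox9, which bile duct cells also make, and Comp, a cartilage and tendon protein, reached the mean for testing. Sox9 fell in both treatments, and Comp was at 2.72 and 1.24 FPKM in the muscle-rich libraries and at or under 0.296 in the other 7.

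The basement membrane chains Col4a1 and Col4a2, which wind together into the common form of collagen IV, were lowest in the Lenvatinib+anti-PD1 group. Col4a1 was at 24.4, 64.8 and 49.9 FPKM in Control, 18.99, 25.3 and 21.8 in Lenvatinib+anti-PD1 and 74.6, 40.1 and 58.2 in Co+Len@OVA+anti-PD1. Control library 1 lay within the Lenvatinib+anti-PD1 range, and the other Control libraries lay above it. Col4a2 was at 20.6, 57.8 and 45.8, then 17.2, 23.3 and 20.8, then 62.4, 33.8 and 48.6 FPKM in the same order. Both chains were above every Lenvatinib+anti-PD1 library in all 3 nanocluster libraries. Between the treatments Col4a1 differed by 1.33 ± 0.36 SE on the log2 scale (adjusted p = 0.0269) and Col4a2 by 1.19 ± 0.37 SE (adjusted p = 0.046). Both calls were lost on leaving out any Lenvatinib+anti-PD1 library or library 1 or 3 of Co+Len@OVA+anti-PD1, and that of Col4a2 also without Control library 3 (adjusted p up to 0.0867 and 0.137). Against Control, Lenvatinib+anti-PD1 was at -0.95 for Col4a1 (adjusted p = 0.089) and -0.89 for Col4a2 (adjusted p = 0.12), and both passed without Control library 1. The nanocluster against Control was at 0.38 and 0.30 (adjusted p = 0.435 and 0.56).

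Endothelial markers, summed over 11 genes, were at 8.995, 45.8 and 33.9 FPKM in Control, 15.8, 30.7 and 22.4 in Lenvatinib+anti-PD1 and 57.1, 30.3 and 43.2 in Co+Len@OVA+anti-PD1. The library order within each group was that of Col4a1. Col1a1 and the summed fibroblast and macrophage markers had this order too, so it was not particular to vessel cells. None of the 8 tested endothelial markers passed in limma in either comparison with Control. At an unadjusted p under 0.05 there were 5 for the nanocluster (46.6% of all genes) and 1 for free lenvatinib (38.2%). Between the treatments, where Col4a1 and Col4a2 were called, Emcn was higher with the nanocluster by 1.32 (adjusted p = 0.0276) and the sinusoidal marker Clec4g lower by -1.58 (adjusted p = 0.00932). There 4 of 8 had an unadjusted p under 0.05, against 44.6% of all genes. The part of vessel cells in the collagen IV differences was not tested. Col4a5, a chain of a rarer collagen IV form, had the same order of libraries as Col4a1 within each group but a lower level beside it with the nanocluster. It was at 0.744, 1.80 and 1.43 FPKM in Control, 0.300, 0.814 and 0.565 in Lenvatinib+anti-PD1 and 0.766, 0.379 and 0.634 in Co+Len@OVA+anti-PD1. Its means of 1.33, 0.56 and 0.593 FPKM put both treatments below Control, with adjusted p = 0.083 for each. Its neighbour Col4a6 and the kidney chains Col4a3 and Col4a4 were at or under 0.182 FPKM in every library.

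Collagen VI is made of Col6a1, Col6a2 and Col6a3. Col6a1 was at 20.8, 30.2 and 27.7 FPKM in Control, 4.04, 23.0 and 11.5 in Lenvatinib+anti-PD1 and 34.8, 19.7 and 27.4 in Co+Len@OVA+anti-PD1. Library 1 of Lenvatinib+anti-PD1 was the lowest of all 9, and library 2 lay within Control. The log2 fold change of Lenvatinib+anti-PD1 against Control was -1.28 (-2.50 to -0.07, adjusted p = 0.114), and it passed without the muscle-rich library 2. Col6a2 was at 11.4 ± 2.07, 8.03 ± 6.21 and 13.0 ± 4.20 FPKM in the 3 groups. Col6a3, the long chain whose end fragment is endotrophin, was at 2.91, 5.02 and 4.20 FPKM in Control, 1.39, 6.80 and 3.47 in Lenvatinib+anti-PD1 and 10.9, 5.99 and 8.82 in Co+Len@OVA+anti-PD1. Every nanocluster library was above every Control library, but the log2 fold change of 0.99 did not pass (adjusted p = 0.127).

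Among the fibril-associated chains, which sit on collagen fibrils, 5 of 9 were tested. Col9a1, a collagen IX chain, was at 3.44, 4.24 and 4.15 FPKM in Control, 7.37, 6.55 and 7.01 in Lenvatinib+anti-PD1 and 1.66, 1.55 and 1.52 in Co+Len@OVA+anti-PD1. The 3 groups did not overlap, and the spread within each was small. Col9a1 rose with free lenvatinib by 0.75 ± 0.09 SE on the log2 scale (adjusted p = 0.00141) and fell with the nanocluster by -1.10 ± 0.09 (adjusted p = 0.000246). Between the treatments it differed by -1.85 (adjusted p = 1.12e-05). All 3 calls held on leaving out any 1 library, with adjusted p up to 0.0107. Col22a1, a chain known from tissue junctions, ran the same way, at 1.2, 1.70 and 1.47 FPKM in Control, 2.04, 2.24 and 2.14 in Lenvatinib+anti-PD1 and 0.573, 0.849 and 0.678 in Co+Len@OVA+anti-PD1. Its groups did not overlap either. It fell with the nanocluster by -0.70 ± 0.14 SE (adjusted p = 0.00665) and was lower than with free lenvatinib by -1.14 (adjusted p = 0.000703), both held on leaving out any 1 library. Its rise with free lenvatinib of 0.44 was near the threshold (adjusted p = 0.0494) and was lost without Control library 1 or 3, without any Lenvatinib+anti-PD1 library or without Co+Len@OVA+anti-PD1 library 3 (adjusted p up to 0.134).

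Hepatocyte markers were lower in the same libraries as Col9a1 and Col22a1 in Co+Len@OVA+anti-PD1. All 10 fell with the nanocluster against Control (12.7% of all genes), with a median of -3.66, while with free lenvatinib 1 of 10 rose (13.8% of all genes) and their median was 0.60. Afp was lower in those libraries too. The part of hepatocyte or tumour cell content in these chains was not tested. Col9a2 and Col9a3, the partners of Col9a1 in collagen IX, were low, with means of 0.0923 and 0.45 FPKM over the 9 libraries. Col14a1, Col16a1 and Col12a1, which bind collagen I fibrils in soft tissue, passed in no comparison. Col14a1 was at 7.56 ± 3.36, 8.46 ± 3.88 and 6.18 ± 1.66 FPKM in the Control, free lenvatinib and nanocluster groups. Col12a1 was at 2.28, 2.45 and 2.14 FPKM in Control, 0.192, 2.76 and 1.16 in Lenvatinib+anti-PD1 and 3.51, 1.57 and 2.80 in Co+Len@OVA+anti-PD1. Its lowest library was again library 1 of Lenvatinib+anti-PD1.

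Col8a1, a short-chain collagen of vessel walls and healing tissue, had the largest log2 fold change of the 24 chains in both comparisons of Co+Len@OVA+anti-PD1. It was at 2.46, 1.49 and 2.24 FPKM in Control, 0.982, 2.07 and 1.54 in Lenvatinib+anti-PD1 and 17.2, 11.9 and 15.0 in Co+Len@OVA+anti-PD1. The lowest nanocluster library was far above the highest of the other 6, whose groups overlapped. The mean was 7.13 times that of Control and 9.61 times that of Lenvatinib+anti-PD1. Col8a1 rose by 2.57 ± 0.24 SE on the log2 scale against Control (adjusted p = 0.000338) and by 2.93 ± 0.24 against Lenvatinib+anti-PD1 (adjusted p = 0.000111). Both calls held on leaving out any 1 library, with adjusted p up to 0.003. With libraries 1 and 2 alone the comparison with Control missed the threshold (adjusted p = 0.0648). Free lenvatinib against Control was at -0.35 (-0.90 to 0.19, adjusted p = 0.315).

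Col8a2, the partner of Col8a1 in collagen VIII, was at 1.16, 0.416 and 0.576 FPKM in Control, 0.218, 1.07 and 0.614 in Lenvatinib+anti-PD1 and 1.59, 0.589 and 1.53 in Co+Len@OVA+anti-PD1. The groups overlapped, and its log2 fold change with the nanocluster was 0.50 (adjusted p = 0.326). Col10a1, the third short-chain gene and a marker of growth cartilage, fell below the mean for testing. It was at 0.501, 1.21 and 0.702 FPKM in Control, 0.0242, 0.118 and 0.111 in Lenvatinib+anti-PD1 and 0.455, 0.154 and 0.304 in Co+Len@OVA+anti-PD1. Each Control library was above each treated library. It was lower in Lenvatinib+anti-PD1 when all genes with a mean above 0 entered the test.

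**Figure D3:**
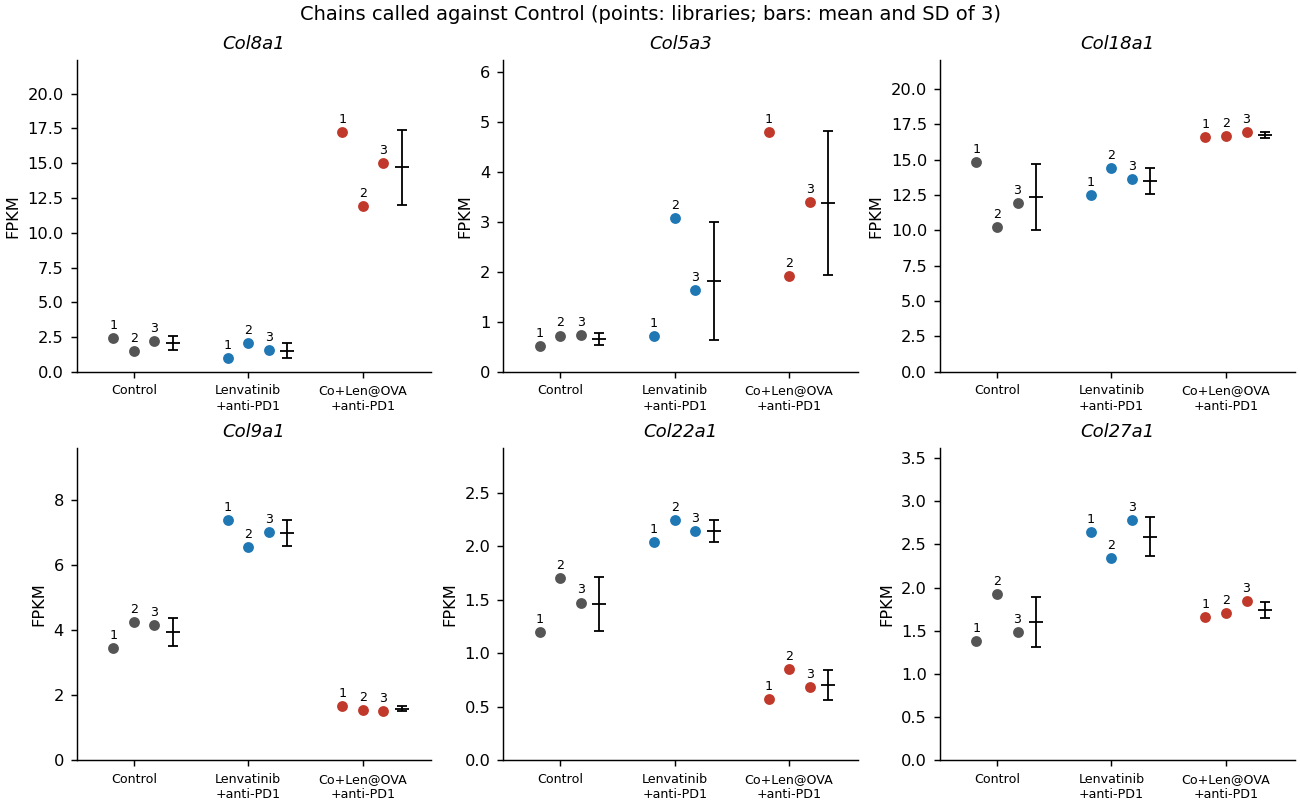
FPKM in each library, with group mean and SD of 3 beside the points, of the 6 chains called in a comparison with Control. Col8a1 sits at 11.9 to 17.2 FPKM in Co+Len@OVA+anti-PD1 and at or under 2.46 elsewhere, and Col9a1 takes separate levels in the 3 groups.

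Col15a1 and Col18a1 carry endostatin-like ends and lie at the outer face of basement membranes. Col18a1, which is also made by hepatocytes, was at 14.8, 10.3 and 11.95 FPKM in Control, 12.5, 14.4 and 13.6 in Lenvatinib+anti-PD1 and 16.6, 16.7 and 17.0 in Co+Len@OVA+anti-PD1. The nanocluster libraries were nearly equal and above all others. The rise of 0.44 ± 0.12 SE (adjusted p = 0.0256) was lost without Control library 3 or any library of Co+Len@OVA+anti-PD1 (adjusted p up to 0.0786). Col15a1 was at 5.54, 18.9 and 14.3 FPKM in Control, 4.83, 8.74 and 6.81 in Lenvatinib+anti-PD1 and 36.3, 13.4 and 24.9 in Co+Len@OVA+anti-PD1. All nanocluster libraries were above all Lenvatinib+anti-PD1 libraries, and the lowest of them lay within Control. Between the treatments it differed by 1.72 ± 0.49 SE (adjusted p = 0.0332). That call was lost without Control library 3, any Lenvatinib+anti-PD1 library or library 1 or 3 of Co+Len@OVA+anti-PD1 (adjusted p up to 0.102).

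Some chains followed single libraries rather than groups. Col17a1, the transmembrane collagen of hemidesmosomes in squamous epithelium, was at 2.51, 0 and 4.56 FPKM in Control, 3.39, 6.85 and 2.22 in Lenvatinib+anti-PD1 and 2.57, 2.21 and 2.00 in Co+Len@OVA+anti-PD1. Control library 2, where it is listed at 0, was also the library with 2.34 FPKM of squamous markers, and the highest library, Lenvatinib+anti-PD1 library 2, had the highest sum of those markers, 438. Col6a6, a collagen VI chain of muscle and skin, was at 1.21 and 0.433 FPKM in the muscle-rich libraries and at or under 0.0611 in the other 7. Col25a1, a neuronal transmembrane collagen, was at 0.299 and 0.163 FPKM in the libraries with nerve and glia markers and at or under 0.0296 in the other 7. The part of other tissue in these values was not tested.

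**Figure D4:**
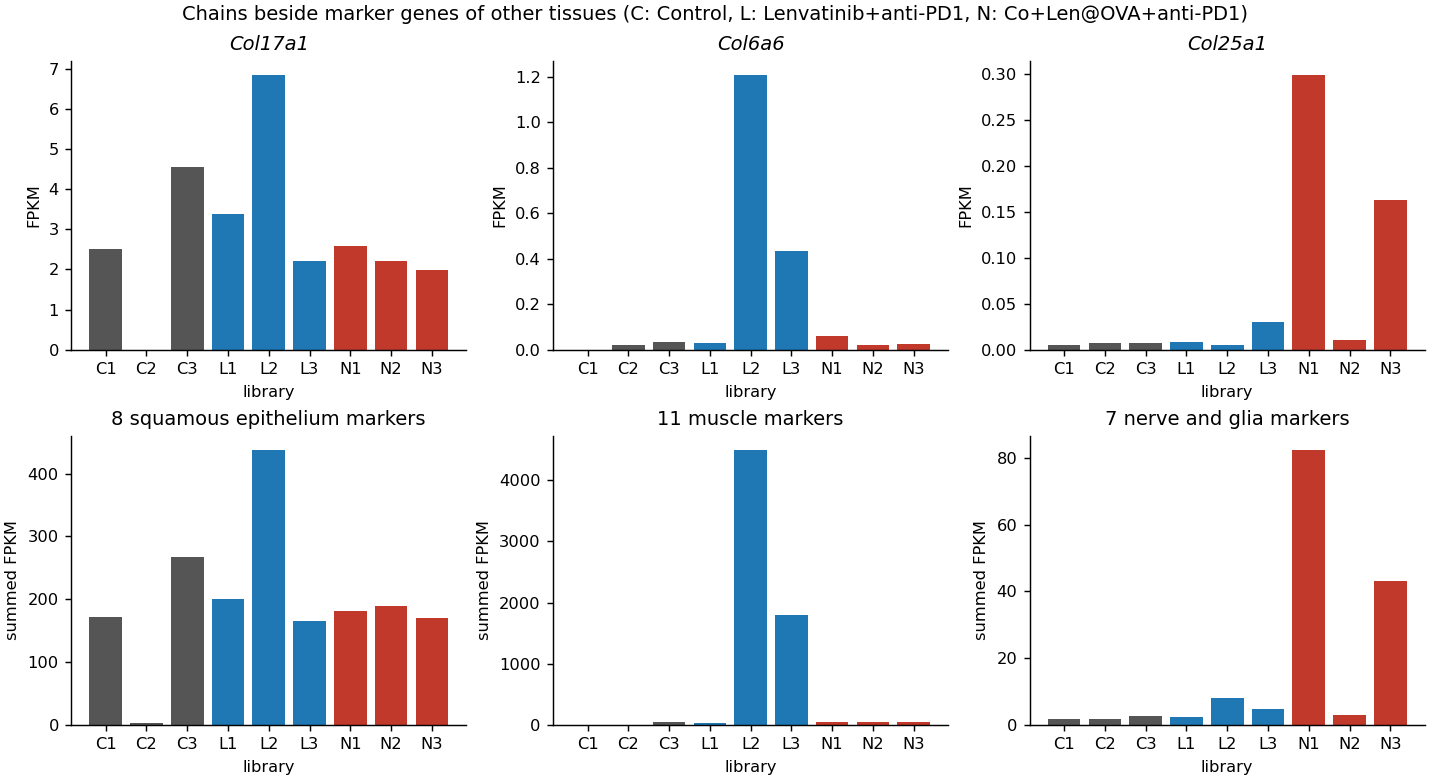
FPKM of Col17a1, Col6a6 and Col25a1 in each library (upper bars) above the summed FPKM of squamous, muscle and nerve and glia markers (lower bars). Col17a1 and the squamous markers are both at or near 0 in Control library 2, Col6a6 and muscle markers are highest in library 2 of Lenvatinib+anti-PD1, and Col25a1 and nerve markers in library 1 of Co+Len@OVA+anti-PD1.

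The 20 untested chains had means of up to 0.459 FPKM (Col28a1), where the lowest tested chain, Col11a2, had 0.634. The highest single value among them was the 1.21 FPKM of Col6a6. Of these chains, 8 had a mean under 0.1 FPKM and 6 were listed at 0 in at least 1 library. Col2a1, the main collagen of cartilage, was at or under 0.0571 FPKM, and Col19a1, the neighbour of Col9a1 on chromosome 1, was listed at 0 in 6 libraries. Col24a1, a fibrillar chain, was at 0.024, 0.0652 and 0.0948 FPKM in Control, 0.00628, 0.166 and 0.103 in Lenvatinib+anti-PD1 and 0.286, 0.219 and 0.249 in Co+Len@OVA+anti-PD1. Col13a1, a transmembrane chain, was at 0.0257 to 0.228 FPKM in Control, 0.0472 to 0.115 in Lenvatinib+anti-PD1 and 0.247 to 0.402 in Co+Len@OVA+anti-PD1. Col6a4, a collagen VI chain, was at or under 0.016 FPKM in Control, 0.00718 in Lenvatinib+anti-PD1 and at 0.0618 to 0.124 in Co+Len@OVA+anti-PD1. These 3 chains were higher in every nanocluster library than in any other, at levels below the filter. With no filter, Col6a4 alone of them was called, against both other groups. Other low chains went the other way. With the nanocluster, Col11a1 was at 0.0606 to 0.1735 FPKM, against 0.326 to 0.511 in Control. Col4a4 was at 0.011 to 0.0453 FPKM, against 0.0596 to 0.0841 in Control. Both lay below every Control library, as did Col10a1. The share of all low genes that separate in these ways was not computed.

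Ratios of partner chains within a library remove the part of the spread that the chains share, and were added after seeing the data. Over 11 ratios and 3 comparisons, 33 exact two-sided permutation tests were made, each with 0.1 as the smallest p that 3 against 3 allows, and 19 reached it (adjusted p = 0.174). None could pass, and the values are descriptive. Col1a1/Col1a2 lay between 1.86 and 2.38 in all 9 libraries, although Col1a1 itself ran from 31.5 to 211 FPKM. The Col1a1/Col1a2 ratio was highest with the nanocluster. It is a ratio of RNA levels, and the chains of the protein were not measured. Between 1.86 and 2.38 the groups did not overlap, with mean ratios of 1.92 in Control, 2.03 in Lenvatinib+anti-PD1 and 2.24 in Co+Len@OVA+anti-PD1. Control library 1 and Lenvatinib+anti-PD1 library 3 nearly touched, both at 2.0 when rounded. Col4a1/Col4a2, the pair with overlapping promoter windows, lay between 1.05 and 1.2. Its nanocluster libraries were above all others, with group means of 1.13, 1.08 and 1.19 in the same order.

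Other ratios held within groups and differed more widely between them. Col5a3/Col5a1 was 0.0416, 0.0422 and 0.0483 in Control, 0.246, 0.243 and 0.219 in Lenvatinib+anti-PD1 and 0.233, 0.194 and 0.221 in Co+Len@OVA+anti-PD1. Both treatment groups were above every Control library, and they overlapped each other. Their geometric means were 5.36 and 4.90 times that of Control (exact permutation p = 0.1 each). Col6a3/Col6a1 was 0.14, 0.166 and 0.151 in Control, 0.344, 0.296 and 0.302 in Lenvatinib+anti-PD1 and 0.314, 0.305 and 0.321 in Co+Len@OVA+anti-PD1. The geometric mean was 2.06 times that of Control in each treatment group (exact permutation p = 0.1 each), with the treatment groups overlapping. These comparisons share the Control libraries. Library 1 of Lenvatinib+anti-PD1, the one without high muscle markers, had the highest Col5a3/Col5a1 and Col6a3/Col6a1 ratios of the 9.

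Col4a5/Col4a1 differed between the nanocluster and the rest, at 0.0306, 0.0278 and 0.0287 in Control, 0.0158, 0.0321 and 0.0259 in Lenvatinib+anti-PD1 and 0.0103, 0.00946 and 0.0109 in Co+Len@OVA+anti-PD1. The nanocluster geometric mean was 0.351 times that of Control (exact permutation p = 0.1), and its libraries were below all others. Col6a1/Col6a2 was lowest in Lenvatinib+anti-PD1, at 1.75, 1.57 and 1.61, against 2.25, 2.26 and 2.40 in Control and 2.02, 2.22 and 2.11 with the nanocluster. Col8a1/Col8a2 was 10.8, 20.2 and 9.77 with the nanocluster and between 1.93 and 4.50 in the other libraries. Col3a1/Col1a1 was 0.398, 0.576 and 0.536 in Control and 0.444, 0.283 and 0.383 with the nanocluster, with overlap (exact permutation p = 0.2).

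**Figure D5:**
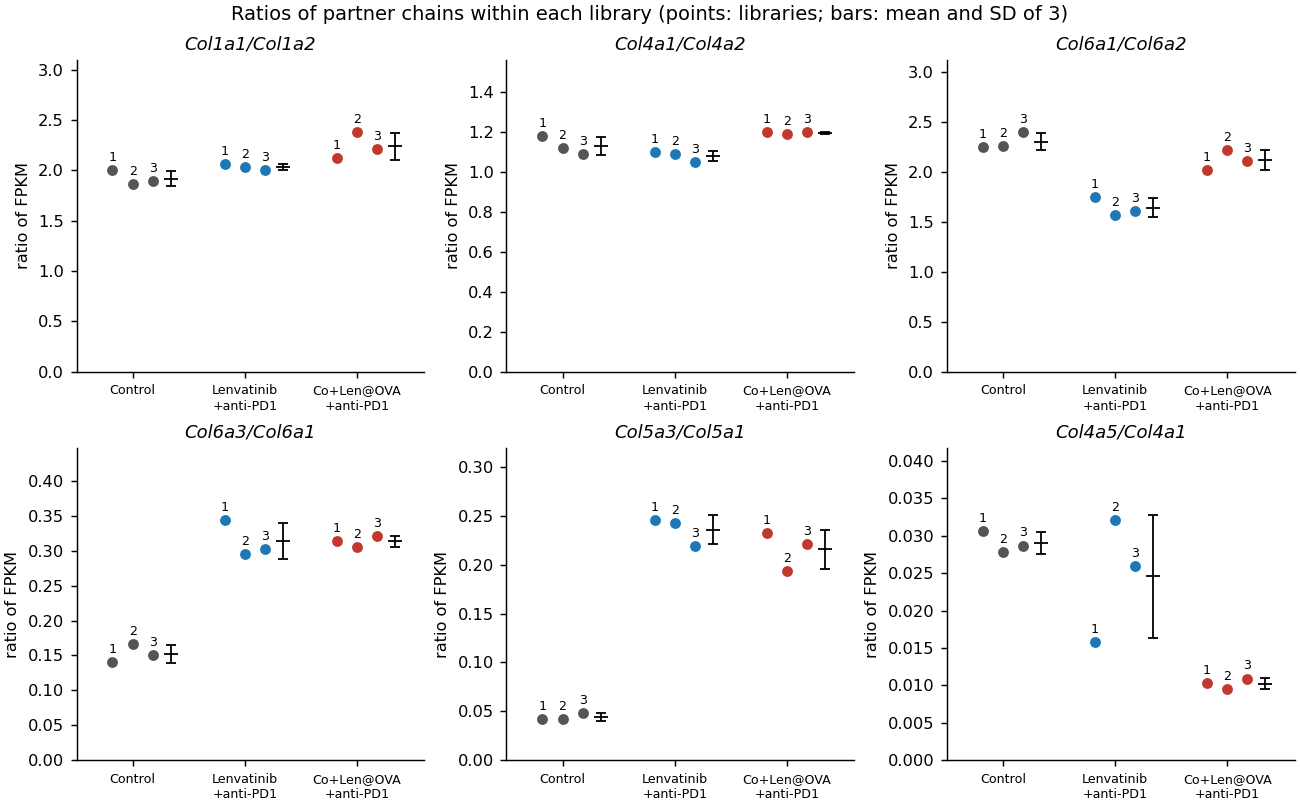
Ratios of FPKM of 2 chains within each library, by group, with the mean and SD of 3 beside the points. Col1a1/Col1a2 and Col4a1/Col4a2 stay within narrow ranges and are highest in Co+Len@OVA+anti-PD1. Col6a3/Col6a1 and Col5a3/Col5a1 are higher in both treatment groups than in Control, and Col4a5/Col4a1 is lowest in Co+Len@OVA+anti-PD1.

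Genes that make, trim, bind or break collagen were followed on 6 lists. Their counts are to be set beside the shares of all genes. With the nanocluster 20.9% of all genes rose and 12.7% fell, and with free lenvatinib 13.8% rose and 9.87% fell. Between the treatments 17.3% were higher with the nanocluster and 12.0% lower. No list was tested as a set. Among 21 tested genes of chain folding and modification, 4 rose and 4 fell with the nanocluster against Control (median 0.29). Serpinh1, the collagen chaperone HSP47, rose from 17.9, 28.1 and 25.7 FPKM to 111, 59.2 and 85.4 (log2 fold change 1.79 ± 0.37 SE, adjusted p = 0.00941). No nanocluster library overlapped Control, and Lenvatinib+anti-PD1 was at 15.8, 43.8 and 28.2 FPKM. P4hb, a subunit of prolyl hydroxylase that is also a general disulfide isomerase, fell by -0.55, Creb3l1, a transcription factor of secretory cells, by -1.49 and Tmem38b, an ion channel of the endoplasmic reticulum, by -0.73. With free lenvatinib 0 rose and 4 fell (median -0.23). These were P4ha2 (-0.93), P4hb (-0.57), Ppib (-0.35) and P4ha1 (-0.34), which hydroxylate prolines or help the helix fold. P4ha2 was at 8.72, 9.37 and 9.20 FPKM in Control and 4.33, 4.50 and 4.75 with free lenvatinib, with no overlap (adjusted p = 0.000617). Between the treatments 7 were higher with the nanocluster and 1 lower (median 0.43).

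Among 12 tested genes of trimming and cross-linking, 3 rose and 0 fell with the nanocluster (median 0.30). Loxl4, a lysyl oxidase that cross-links collagen, rose by 1.21, the procollagen protease Adamts14 by 0.83 and the transglutaminase Tgm2 by 0.80. With free lenvatinib 1 rose and 3 fell (median -0.32). Lox, the founding lysyl oxidase, was at 14.5, 15.7 and 14.7 FPKM in Control, 2.01, 5.78 and 3.37 in Lenvatinib+anti-PD1 and 18.6, 6.05 and 12.1 in Co+Len@OVA+anti-PD1. Every Lenvatinib+anti-PD1 library was below every other library, and the fall was -1.97 ± 0.42 SE (adjusted p = 0.0128). Loxl3 fell by -1.51 and Loxl2 by -0.44, while Loxl4 rose by 0.64. Between the treatments 6 were higher with the nanocluster and 0 lower (median 0.69), with Loxl3 at 2.04, Lox at 1.56 and Sparc, a collagen-binding matrix protein, at 0.98.

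Of 9 tested collagen receptors, 4 rose and 0 fell with the nanocluster (median 0.49) and 3 rose and 1 fell with free lenvatinib (median -0.10). Ddr2, a receptor tyrosine kinase for fibrillar collagen, was at 3.19, 3.57 and 3.76 FPKM in Control, 5.94, 7.17 and 5.99 with free lenvatinib and 6.56, 8.01 and 6.77 with the nanocluster. It rose in both, by 0.78 (adjusted p = 0.00224) and 0.92 (adjusted p = 0.000816), and the treatment groups overlapped. Ddr1 rose by 0.47 and 0.49. Itga1, an integrin chain for collagen IV, rose by 0.76 with the nanocluster, and Itgb1, its partner, fell by -0.28 with free lenvatinib.

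Of 6 tested collagen-degrading enzymes, none passed with the nanocluster against Control (limma), and 0 had an unadjusted p under 0.05 (median -0.10). With free lenvatinib 3 fell and 0 rose (median -0.58): Mmp9, a gelatinase, by -2.01, Mmp8, a neutrophil collagenase, by -1.59 and Mmp14, a membrane-bound collagenase, by -0.60. Mmp14 was at 38.0, 43.5 and 42.9 FPKM in Control and 26.3, 27.6 and 27.4 with free lenvatinib, with no overlap. Between the treatments 3 were higher with the nanocluster and 0 lower (median 0.89).

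Of 16 tested fibril-associated matrix genes, 2 rose and 1 fell with the nanocluster (median 0.26), and 2 rose and 2 fell with free lenvatinib (median -0.09). Tnc, the wound matrix protein tenascin C, rose from 2.33, 1.43 and 1.68 FPKM to 9.92, 3.31 and 6.74 with the nanocluster (1.53 ± 0.43 SE, adjusted p = 0.0279). Free lenvatinib libraries were at 0.636, 2.38 and 1.25 FPKM, overlapping Control. Biglycan (Bgn), a fibril-binding proteoglycan, fell with free lenvatinib by -1.14, and decorin (Dcn), a relative, rose by 0.51. Tnxb rose by 1.44 (adjusted p = 0.0277), at 1.35, 5.80 and 3.16 FPKM, highest in the muscle-rich libraries. Fn1 fell by -0.51 (adjusted p = 0.00194). Between the treatments 3 of this list were higher with the nanocluster and 1 lower (median -0.01). Of 12 tested basement membrane partners, 2 rose and 2 fell with the nanocluster (median 0.43) and 1 rose with free lenvatinib (median -0.11). The heparan sulfate proteoglycan Hspg2 rose by 0.54 with the nanocluster. Between the treatments, nidogen (Nid1), which links laminin to collagen IV, was higher with the nanocluster by 1.52, the laminin chain Lamb1 by 1.42 and Lama4 by 1.11. The medians of all genes tested were 0.13, 0.05 and 0.07 in the 3 comparisons, and in libraries 1 and 2 alone no gene of these lists or of a list of collagen-domain proteins passed against Control in limma, with 11 higher and 6 lower at an unadjusted p under 0.05 for the nanocluster and 7 and 9 for free lenvatinib.

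Fibroblast, stellate and pericyte markers stood beside these differences. Summed over 14 genes they were at 52.5, 86.7 and 76.9 FPKM in Control, 40.5, 159 and 89.5 in Lenvatinib+anti-PD1 and 201, 122 and 162 in Co+Len@OVA+anti-PD1. Each nanocluster library was above each Control library, and library 2 of Lenvatinib+anti-PD1 owed 91.5 FPKM to Des, which muscle also makes. Of the 10 tested markers, 6 rose with the nanocluster, where 20.9% of all genes did. None passed with free lenvatinib in limma, with 4 at an unadjusted p under 0.05, which 38.2% of all genes reached. The other 4 tested markers did not pass, with Pdgfrb at 0.61, Pdgfra at -0.47, Lhfp at -0.23 and Des at -0.11. Acta2, smooth muscle actin of activated stellate cells, rose by 1.21 (adjusted p = 0.0228) and Thy1, a fibroblast surface protein also made by T cells, by 1.62. The markers of quiescent stellate cells, too low for the test, had lower means with the nanocluster. Lrat was at 0.208, 1.72 and 1.19 FPKM in Control, 0.405, 0.451 and 0.266 in Lenvatinib+anti-PD1 and 0.0286, 0.0352 and 0 in Co+Len@OVA+anti-PD1, below every Control library. Reln was at 0.05, 0.385 and 0.241 FPKM in Control and 0.142, 0.0138 and 0.0716 with the nanocluster, with overlap. The part of stromal cell content in the collagen values was not tested.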

How the data were processed

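RNA from 9 mouse tumours was sequenced from strand-marked poly(A) libraries in paired reads of 150 bases, per the labels' protocols. Tools named in the submitters' processing notes are fastp, StringTie and edgeR, with no versions. For the aligner, the build and the annotation, names were not given in the sources used here. The values the authors deposited are FPKM, although the table is named as counts, so the depth is unknown and no count test was run. No other column of per-sample values was present.

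Of 32761 genes, the 15353 whose mean reached 0.5 FPKM were tested with limma 3.58.1 in R 4.3.3 on log2(FPKM + 0.5), with a mean-variance trend and robust moderation. All 9 libraries entered 1 fit with 6 residual degrees of freedom, and Benjamini-Hochberg adjustment ran over all genes tested. Adjusted p-values are limma's, "rose" and "fell" mean an adjusted p under 0.05, and the scale understates changes of low genes. Intervals are 95%. The fit was tested on simulated data.

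Collagen chains were matched by symbol. Pathway genes named are the up to 4 largest changes per list and comparison, and marker genes the 3 with the highest mean. Others were named after their values were seen (Acan, Emcn, Clec4g, Pdgfrb, Pdgfra, Lhfp, Lrat, Reln, Matn1, Matn3, Igf2, Dlk1). The members and lists were chosen with earlier results of these data known. Alternatives were other pseudocounts, filters, scalings and variance models, a fit to 2 groups, a replicate block, libraries 1 and 2 alone and leaving out each library. Leaving out both muscle-rich libraries and the partner ratios (scipy 1.17.1, exact permutation) were added after seeing the data.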

Additional observations from a re-analysis of the deposited data

How the results depend on the processing

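The 15 calls of collagen chains were recomputed under 20 alternatives each, 300 values in all. Of these, 226 kept their call, 74 lost it and 0 changed direction. The calls of Col8a1, Col9a1 and Col22a1 of the nanocluster group against either other group held in at least 19 of 20. In libraries 1 and 2 alone, with 3 residual degrees of freedom, 0 chains rose and 0 fell with the nanocluster against Control, 0 rose with free lenvatinib, and 1 was higher and 1 lower between the treatments. With no filter on the mean, 1 chain (Col10a1) fell with free lenvatinib, and 2 were higher between the treatments (Col8a1 and the low Col6a4, with Col4a1, Col4a2 and Col15a1 lost). In that fit 3.77% of all genes fell with free lenvatinib and 6.52% were higher between the treatments. Against Control, Col6a4 was then called with the nanocluster and Col18a1 was not, where 7.81% of all genes were higher. Without both muscle-rich libraries, 0 chains rose and 1 fell with free lenvatinib, and 7 were higher between the treatments.

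Leaving out 1 library at a time gave 1 to 4 risen and 2 to 3 fallen chains with the nanocluster, 1 to 3 risen and 0 to 4 fallen with free lenvatinib, and 1 to 6 higher and 2 to 3 lower chains between the treatments. Among all genes these fits gave 10.5% to 23.9% higher and 8.06% to 13.7% lower with the nanocluster. With free lenvatinib they gave 6.91% to 15.5% and 5.44% to 17.4%, and between the treatments 7.93% to 27.5% and 7.39% to 15.4%. With the replicate block, 1 chain (Col8a1) was higher between the treatments in place of 4. There 12.1% of all genes were higher, against 17.3% in the main fit. The deviations of same-numbered libraries from their group means correlated at -0.248 to 0.079. Library 3 lay close to the mean of the other 2, so these values cannot settle whether the numbers pair the samples.

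Median-of-ratios scaling moved the median of all genes by -0.11 for the nanocluster against Control and the split of all calls from 3209 higher and 1946 lower to 2216 and 2699. Upper quartile scaling gave 2499 and 2435. Between the treatments the median-of-ratios split was 2084 and 2333, against 2657 and 1850. Under both scalings, 2 of the 3 risen chains with the nanocluster kept their call, and Col18a1 did not. The causes of these changes were not tested. FPKM carry no depth, so precision at low levels is unknown.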

Other observations

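Proteins outside the collagen family that carry a short collagen-like helix were followed on a list of 16 genes, of which 12 were tested. Against Control, 2 rose and 4 fell with the nanocluster (median 0.79), 2 rose and 0 fell with free lenvatinib (median -0.20), and 5 were higher and 3 lower between the treatments (median 0.69). Among all genes the shares in the same order were 20.9% and 12.7%, 13.8% and 9.87%, and 17.3% and 12.0%. The mannose-binding lectin Mbl2, made by hepatocytes, was at 17.6, 5.07 and 8.46 FPKM in Control, 38.8, 36.9 and 39.9 in Lenvatinib+anti-PD1 and 0.662, 0.706 and 1.15 in Co+Len@OVA+anti-PD1. The 3 groups did not overlap, and limma called it in each comparison (adjusted p = 0.0072 for free lenvatinib and 0.00134 for the nanocluster against Control). Mbl1 ran the same way, at 2.21 ± 0.755, 8.34 ± 0.737 and 0.163 ± 0.0387 FPKM (SD, n = 3). The macrophage scavenger receptor Marco was at 3.42, 3.98 and 4.67 FPKM in Control, 4.29, 4.83 and 4.73 in Lenvatinib+anti-PD1 and 13.0, 32.8 and 24.5 in Co+Len@OVA+anti-PD1. It rose with the nanocluster by 2.32 ± 0.29 SE on the log2 scale (adjusted p = 0.00117). The complement chain C1qb was at 75.4, 380 and 281 FPKM in Control, 93.3, 106 and 101 in Lenvatinib+anti-PD1 and 394, 327 and 367 in Co+Len@OVA+anti-PD1. It differed between the treatments by 1.85 (adjusted p = 0.0298) and, with Control library 1 far below the other Control libraries, not against Control (adjusted p = 0.222). In libraries 1 and 2 alone, no gene of the pathway lists passed against Control and 2 were lower between the treatments.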
